A study of Mus musculus with 8 samples.

Results

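Neutrophils are short-lived white blood cells that leave the bone marrow with their weapons already packed in granules. Primary granules are filled first and carry serine proteases, secondary granules follow with antimicrobial proteins, and tertiary granules come last with matrix-degrading enzymes. The transcripts for these cargoes are made in that order and are largely shut off before release, so that early granule transcripts are typical of marrow precursors. In the healthy brain, neutrophils are found mainly in blood vessels and at its borders.

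The 10 genes described here were taken as a fixed list of symbols, and each was matched by symbol to 1 of the 46983 genes in the deposited table. They are S100a8 and S100a9, which form calprotectin, a calcium- and zinc-binding protein of the cytosol; Elane, neutrophil elastase of the primary granules; Camp, Ngp and Ltf of the secondary granules; the collagenase Mmp8 and the gelatinase Mmp9; Retnlg, a secreted resistin-like protein; and Ly6g, the surface antigen by which mouse neutrophils are sorted. S100a8, S100a9 and Mmp9 can also be made by monocytes.

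The libraries were made from total RNA of microglia of the corpus callosum in mice of the FvB/C57BL6 hybrid background. All mice carried Cx3cr1-CreER, a tamoxifen-inducible recombinase expressed under a gene of microglia and monocytes, received tamoxifen at 8 weeks of age and then ate 0.2% cuprizone, which strips myelin, for 6 weeks. By title, 4 libraries were WT, meaning 1 floxed allele (QKLoxP/+), and 4 were Qk-KO, meaning QKLoxP/LoxP, so that the controls also carried the recombinase and 1 floxed allele of Qk. The genotype field gives the reverse of the title for WT 2 and 3 and for Qk-KO 1 and 3, so libraries are called "named WT" and "named Qk-KO" by title and no difference is assigned to a genotype. The labels leave unsaid whether a library is 1 animal or a pool and whether replicates are separate animals. Every p-value here therefore reflects library-to-library spread alone, which may be technical.

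The deposited values are log2 values that behave as regularized ones, pulled towards the gene's mean where reads are few. Size factors read from genes present in a single library ran from 1.05 to 1.26 in named WT and from 0.753 to 0.997 in named Qk-KO, so named WT libraries were the deeper ones, with rough totals of 59.7 to 69.7 M reads against 43.9 to 58.5 M. All 10 microglia markers checked were abundant in every library, with a summed level of 16926 to 18783 CPM in named WT against 13712 to 16106 CPM for the Qk-KO names (CPM, counts per 1 M reads over all genes, from values taken off the log2 scale). The authors' deposited table called 4 of these 10, all with negative fold changes, where it called 1.22% of the 14150 genes with an adjusted p. Named WT 2 stood apart in the genes below, and the group differences are given with and without it.

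All 10 neutrophil genes had their highest value in 1 library, named WT 2, and 8 of the 10 had their lowest in another library of the same named group, WT 4. The 4 named Qk-KO libraries lay between these extremes for 8 of the genes. Neither the sample names nor the genotype field separated the libraries for any of the 10. In bulk libraries of this kind, more neutrophils and more RNA of these genes per cell cannot be told apart. Across the 22546 genes tested, named WT 2 was the highest library for 8.8%, named WT 4 the lowest for 16.6% and named Qk-KO 4 the lowest for 15.4%.

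Values below are on the deposited log2 scale and in replicate order, 1 to 4, within each named group.

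The calprotectin pair had the highest mean levels over the 8 libraries, although in named WT 2 Ltf lay above S100a8. S100a9 was 9.99, 12.70, 9.77 and 7.51 across named WT, and 10.12, 10.79, 9.84 and 9.10 across named Qk-KO. S100a8, its partner, was 8.85, 11.69, 8.62 and 7.32 across named WT, and 9.12, 9.62, 8.71 and 8.30 across named Qk-KO. Named WT 2 was high for both and named WT 4 low, and the named groups overlapped. Named WT 2 exceeded the median of the other 7 libraries 7.27-fold for S100a9 and 7.86-fold for S100a8, and it held 50.9% and 51.6% of the signal summed over the 8 libraries. Between the extremes, named WT 2 and named WT 4, the fold was 36.6 for S100a9 and 20.6 for S100a8.

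Ltf, Ngp and Camp spread furthest. Ltf encodes lactoferrin, which binds iron, and read 8.60, 11.79, 7.30 and 5.08 across named WT, and 7.72, 8.90, 7.04 and 7.02 across named Qk-KO. Ngp, neutrophilic granule protein, read 8.40, 11.66, 7.42 and 5.12 across named WT, and 7.90, 8.55, 7.01 and 6.93 across named Qk-KO. Camp, the precursor of the antimicrobial cathelicidin peptide, read 6.92, 9.96, 4.95 and 4.04 across named WT, and 5.89, 6.59, 5.35 and 5.23 across named Qk-KO. For all 3, the named WT group held both the highest and the lowest library, and the named Qk-KO libraries lay inside that range. Named WT 2 exceeded the median of the other 7 libraries 22.5-fold for Ltf, 18.9-fold for Ngp and 24.4-fold for Camp. It held 69.9%, 69.7% and 71.2% of their summed signal.

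Elane showed another shape. It read 2.36, 6.96, 2.34 and 2.39 across named WT, and 3.50, 2.53, 2.74 and 1.84 across named Qk-KO. Named WT 2 stood far above the rest, named Qk-KO 1 came next, and named WT 4 did not stand below WT 1 and WT 3. Named WT 2 exceeded the median of the other 7 libraries 23.7-fold and held 74.4% of the summed signal. Elane had 303.1 normalized reads in all over the 8 libraries, so most of its values rest on few reads. Shrinkage removed part of its spread: the values taken off the log2 scale added up to 55.2% of the deposited total signal for Elane and 63.5% for Ly6g, against 84.7% for Camp and 92.1% to 97.0% for the other 7.

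Mmp9, Mmp8, Retnlg and Ly6g spread least. Mmp9, gelatinase B of the tertiary granules, read 7.86, 9.67, 7.87 and 6.15 across named WT, and 7.61, 8.29, 7.66 and 6.73 across named Qk-KO. Mmp8, neutrophil collagenase, read 7.03, 8.67, 7.003 and 6.01 across named WT, and 6.90, 7.35, 6.77 and 6.33 across named Qk-KO. Retnlg read 7.66, 9.50, 7.62 and 6.09 across named WT, and 8.03, 8.17, 7.62 and 5.74 across named Qk-KO. For these genes too named WT 2 was highest, by 4.02-, 3.41- and 3.68-fold over the median of the other 7 libraries, and Retnlg was lowest in named Qk-KO 4 rather than in named WT 4. Ly6g was low, at 113.5 normalized reads over all libraries. It read 3.13, 4.95, 2.26 and 2.20 across named WT, and 2.58, 2.73, 2.39 and 2.35 across named Qk-KO, a 5.89-fold excess of named WT 2 over the median of the other 7.

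**Figure D1:**
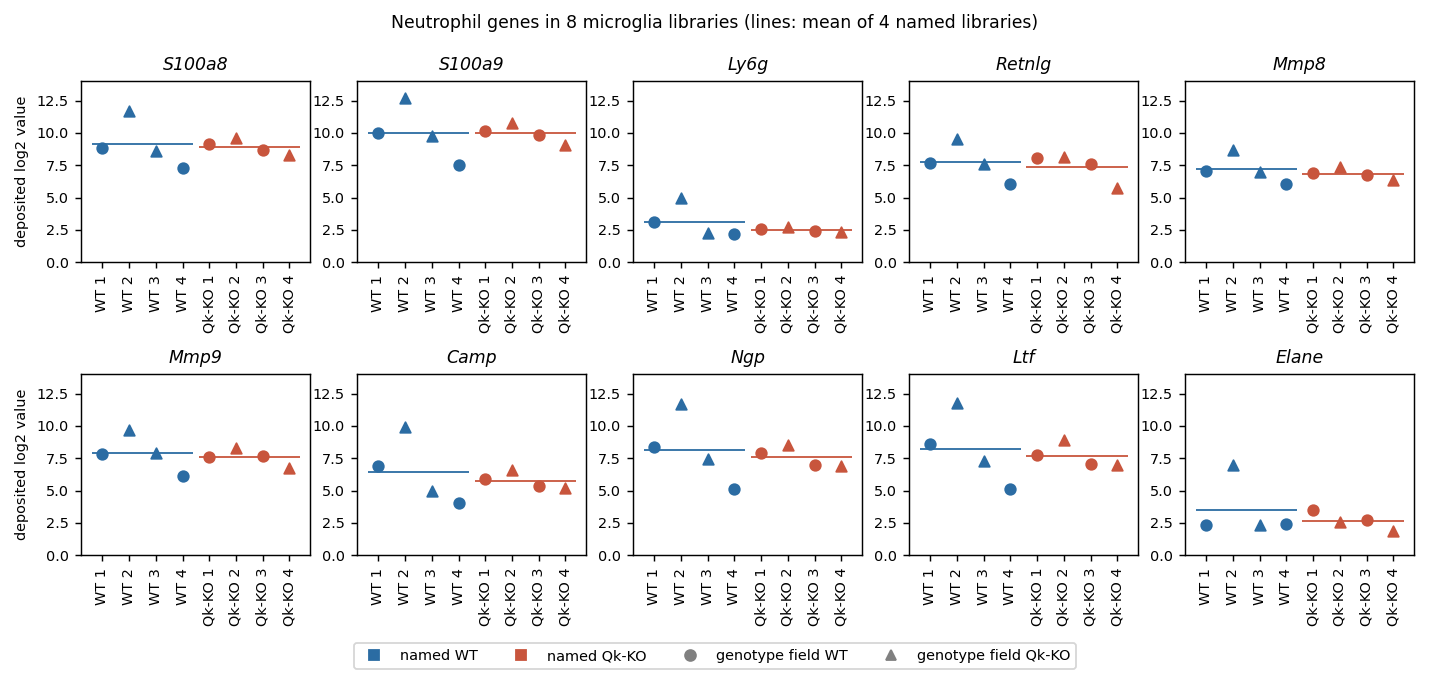
Deposited log2 value (vertical axis) of each of the 10 neutrophil genes in the 8 libraries (horizontal axis), coloured by sample name and shaped by genotype field, with lines at the mean of each named group of 4. Named WT 2 is the highest point in all 10 panels, and named WT 4 is the lowest in 8.

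Per kb of exon, mean levels over the 8 libraries covered a wide range. S100a9 was highest at 56.9 CPM per kb, followed by S100a8 at 21.0, Ngp at 9.09, Retnlg at 7.71, Camp at 4.79 and Ltf at 3.52. Mmp9 and Mmp8 were at 1.40 and 1.13 CPM per kb, Elane at 0.678 and Ly6g at 0.265. As these means include named WT 2, which held between 33.8% and 74.4% of the summed signal of each gene, the order describes the 8 libraries together and not a typical one. S100a8 was 14.6 CPM and S100a9 29.7 CPM before division by length, where the microglia markers sum to 13712 CPM or more.

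Some of the genes lie near each other (GRCm38), namely S100a8 and S100a9, and Camp, Ngp and Ltf. On chromosome 9, Mmp8 lies apart from the other 3, at 7558456 to 7568485 on the plus strand, Camp at 109847379 to 109849617 on the minus strand, Ngp at 110419747 to 110423012 and Ltf at 111019271 to 111042767, both on the plus strand. Camp and Ngp are 570.1 kb apart, and Ngp and Ltf 596.3 kb. S100a8 (90668978 to 90670035, plus strand) and S100a9 (90692632 to 90695721, minus strand) are 22.6 kb apart on chromosome 3. Mmp9 lies on chromosome 2, Elane on 10, Ly6g on 15 and Retnlg on 16. None of the 10 overlaps another gene of the GENCODE M21 annotation, 0 overlapping genes in each case. Ly6g belongs to a family of similar genes, among which reads can be split, so its low values are uncertain.

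Because the genes moved together across libraries, their promoters were read for the short letters of 2 factors of granulocyte development, TTNCNNAA for C/EBP and GAGGAA for PU.1, both strands included. RefSeq sequences (GRCm38.p6) were matched for 9 of the 10 genes. In the 250 bases before the RefSeq start, 7 of these 9 held the C/EBP letters, against 36.8% of 32851 promoters of the same length, and 5 held the PU.1 letters, against 23.3%. Ly6g has more than 1 start in the table and was counted once. RefSeq starts differ from the GENCODE gene starts given above for most of the genes, so that the last 161 bases of the Camp window, 61 of the Ngp window and 21 of the Ltf window lie inside the GENCODE gene, and 0 of the S100a9 window. A match is a description of letters, not of binding. The windows of the 4 genes with the widest range between libraries are shown 5′ to 3′ along each gene's own strand, with the matched letters of either motif in capitals. The matches did not overlap each other in these windows.
Ltf, chr9:111019042-111019291, plus strand: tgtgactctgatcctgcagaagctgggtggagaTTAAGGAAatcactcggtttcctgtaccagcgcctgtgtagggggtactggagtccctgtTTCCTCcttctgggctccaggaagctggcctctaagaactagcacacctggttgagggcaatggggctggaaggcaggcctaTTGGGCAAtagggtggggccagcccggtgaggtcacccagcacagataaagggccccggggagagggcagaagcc
Ngp, chr9:110419558-110419807, plus strand: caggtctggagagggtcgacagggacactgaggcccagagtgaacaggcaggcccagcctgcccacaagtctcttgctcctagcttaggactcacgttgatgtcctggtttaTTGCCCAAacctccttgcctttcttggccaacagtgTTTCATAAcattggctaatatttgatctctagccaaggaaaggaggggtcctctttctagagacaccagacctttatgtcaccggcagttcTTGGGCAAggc
Camp, chr9:109849457-109849706, minus strand: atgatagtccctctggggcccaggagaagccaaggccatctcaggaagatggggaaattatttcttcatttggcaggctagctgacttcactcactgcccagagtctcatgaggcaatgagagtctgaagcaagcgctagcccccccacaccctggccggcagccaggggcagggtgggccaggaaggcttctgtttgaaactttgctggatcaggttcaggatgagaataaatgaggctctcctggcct
S100a9, chr3:90695722-90695971, minus strand: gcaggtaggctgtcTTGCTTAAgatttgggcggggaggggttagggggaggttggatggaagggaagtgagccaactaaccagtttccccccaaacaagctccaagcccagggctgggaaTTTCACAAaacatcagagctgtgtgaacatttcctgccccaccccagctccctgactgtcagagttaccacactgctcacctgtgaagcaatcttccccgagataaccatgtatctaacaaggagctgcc
Ngp held 3 C/EBP matches, Ltf and S100a9 held 2 each, and Camp held none of either motif in this window.

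The order of the libraries was shared by most of the genes. After named WT 2, the next highest library was named Qk-KO 2 for 7 of the 10, named WT 1 for Ly6g and Camp, and named Qk-KO 1 for Elane. Within named Qk-KO, library 2 was highest for 9 genes and library 4 lowest for all 10. Over the 8 libraries, Pearson's r between members had a median of 0.922 over the 45 pairs and a range of 0.754 to 0.997, and Spearman's rho had a median of 0.881 and a lowest value of 0.357. Without named WT 2 and named WT 4, the median r over the remaining 6 libraries was 0.732, with a range of 0.0997 to 0.980. These r values are descriptions over libraries that share their depth differences.

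By class median, named WT 2 exceeded the other libraries by more in the early classes than in the surface receptors. The classes were drawn up after the values were seen and carry no test. Among the 7 primary granule and precursor genes, the excess of named WT 2 over the median of the other 7 libraries had a median of 3.11 log2 units, and Mpo, myeloperoxidase of the primary granules, showed the largest, 76.0-fold. For the 10 secondary granule genes, with their regulator Cebpe, the median excess was 2.59, and for the calprotectin pair 2.92. For 6 genes classed as tertiary granule and mature it was 1.82. Mmp8 was among these 6, although it could also be classed with the secondary granule genes. For the 11 tested surface receptors the median excess was 0.92. Csf3r, the receptor for the neutrophil growth factor, had the lowest ratio of that class, 0.975-fold. Csf3r was also abundant, at 642.9 CPM. Lyz2 and Cybb of the secondary and tertiary granule list were abundant too, at 1843 and 392.4 CPM, with ratios of 1.10 and 1.06. They were put in none of these classes, and neither was Anxa1 of that list, at 4.60-fold. Only the receptor class thus holds an abundant gene that varied little, so the low end of each class depends on this choice. Class medians with these genes placed otherwise were not computed. Over all 22546 tested genes the median excess was 0.0019 log2 units, and 0.204% of genes reached 2. Low genes such as Ms4a3 and Prss57 are shrunken, so their excess is understated.

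**Figure D2:**
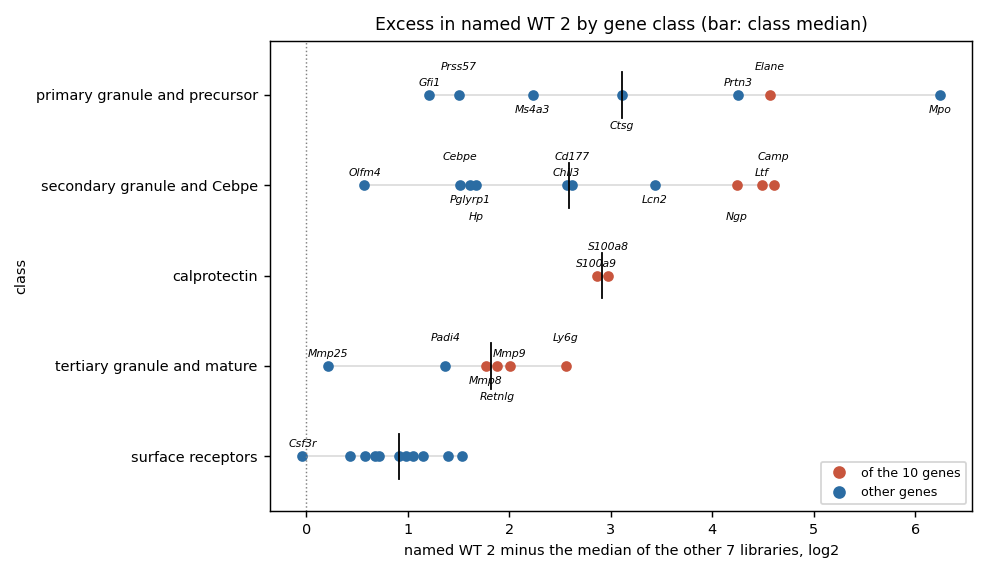
Value in named WT 2 minus the median of the other 7 libraries, in log2 units (horizontal axis), for neutrophil genes grouped by class (vertical axis), with the 10 genes in red, other genes in blue and a black bar at the class median. Of the surface receptors, Csf3r alone is labelled. Medians run from 3.11 in the primary granule class to 0.92 in the surface receptors.

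The 10 genes were among the most variable of the table. Each spanned at least 2 log2 units between its highest and lowest library, as 4.33% of tested genes did, and their ranges ran from 2.66 for Mmp8 to 6.71 for Ltf, which ranked 32nd among 22546 tested genes. The median range was 4.74 log2 units for the members and 0.55 over all tested genes. The spread lay mainly inside named WT, and named WT 2, the highest library for all 10, enters each of its SDs. The SDs without named WT 2 were not computed. As the 10 genes moved together, they are not 10 separate observations. The SD over the 4 libraries was larger in named WT than in named Qk-KO for 10 of 10 genes, against 33.2% of all tested genes, with a median SD of 1.98 for the WT names and 0.66 for the Qk-KO names. Over all tested genes the medians were 0.15 and 0.19. The ratio of the SDs was smallest for Retnlg, 1.24, and largest for Ly6g, 7.30. Ly6g had only 113.5 normalized reads over all libraries, so its low values are shrunken and its ratio is uncertain.

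**Figure D3:**
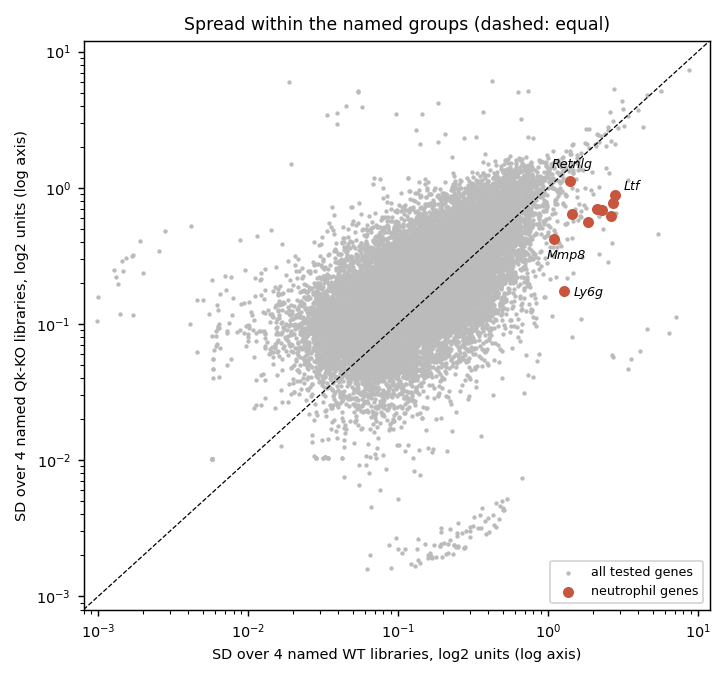
SD over the 4 named WT libraries (horizontal, log axis) against SD over the 4 named Qk-KO libraries (vertical, log axis), in log2 units, for all 22546 tested genes in grey and the 10 neutrophil genes in red, with a dashed line of equality. All 10 lie below the line, at 1.10 to 2.80 on the horizontal axis.

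No neutrophil gene differed between the named groups beyond the spread of the libraries. The linear model of limma, fitted over all 22546 tested genes, called 0 of the 10 at a Benjamini-Hochberg adjusted p under 0.05, and 0 of the 10 had an unadjusted p under 0.05. Of all tested genes it called 0.00444%, or 1 gene, with 1863 at an unadjusted p under 0.05. All 10 estimates were below 0, that is, on the side of lower values under the Qk-KO names. Their median was -0.43 log2 units against -0.0044 over all tested genes. The named groups overlapped for all 10 genes, while 5.73% of tested genes had no overlap. For 8 of the 10, all named Qk-KO libraries lay strictly inside the named WT range, as for 13.5% of tested genes.

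S100a9 averaged 9.99 ± 2.13 by WT name and 9.96 ± 0.70 by Qk-KO name (mean ± SD, n = 4 each), a limma difference of -0.03 with a 95% interval of -2.50 to 2.44 (adjusted p = 0.996). Ltf was 8.20 ± 2.80 and 7.67 ± 0.88 (mean ± SD, n = 4 each), a limma difference of -0.53 with a 95% interval of -3.75 to 2.70 (adjusted p = 0.931). Elane had the most negative estimate, -0.86 with an interval of -3.38 to 1.66 (limma adjusted p = 0.850). Intervals this wide leave room for several-fold differences in either direction. Ly6g had the smallest adjusted p of the 10 (limma, 0.774; difference -0.62, interval -1.89 to 0.64). Without named WT 2, 9 of the 10 estimates turned positive, with a median of 0.38, and Ly6g stood at -0.02. Without named WT 4, all 10 were negative with a median of -0.91, and without named WT 2 and named WT 4 together, an alternative chosen after the data were seen, 7 were negative with a median of -0.18. None was called in any of these fits.

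By genotype field, in which named WT 2 counts as Qk-KO and named WT 4 as WT, all 10 estimates had the other sign. The median was 0.94 log2 units higher in the Qk-KO field group, against 0.0021 over all tested genes. Ltf was 7.11 ± 1.49 in the WT field group and 8.75 ± 2.19 in the Qk-KO field group (mean ± SD, n = 4 each), a limma difference of 1.64 with a 95% interval of -1.17 to 4.46 (adjusted p = 0.9995). Of the 10 genes, 0 were called and 0 had an unadjusted p under 0.05. Limma called 0 of 22546 genes in this grouping (0%), with 602 at an unadjusted p under 0.05.

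**Figure D4:**
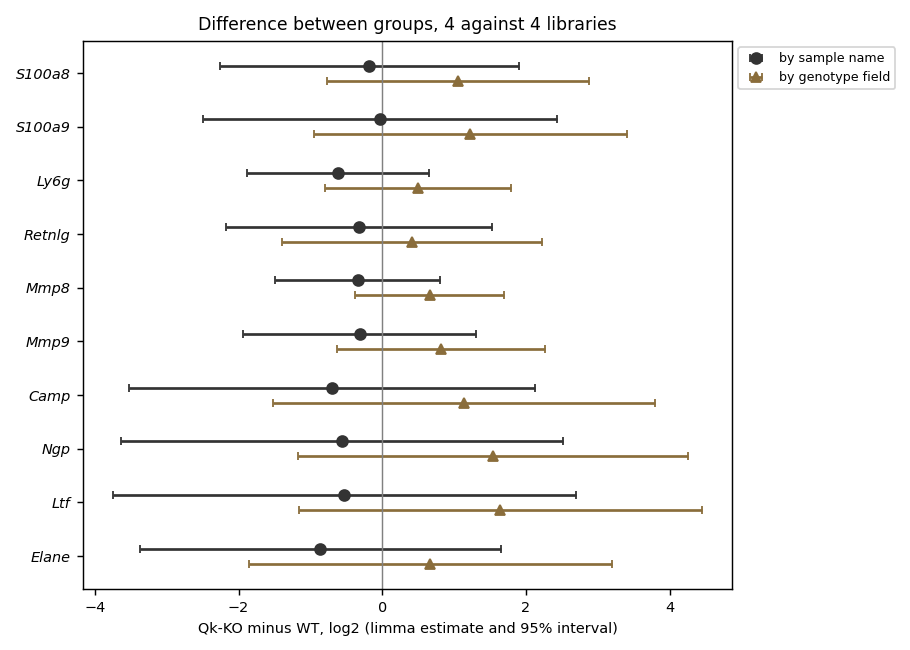
Qk-KO minus WT difference in log2 units (horizontal axis) for each neutrophil gene (vertical axis), as limma estimates with 95% intervals, by sample name (black circles) and by genotype field (brown triangles), 4 against 4 libraries each. All 20 intervals include 0, and the estimates lie below 0 by name and above 0 by genotype field.

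The authors' deposited table treated these genes unlike most others. It gives no p-value for 7 of the 10 (S100a8, S100a9, Ly6g, Camp, Ngp, Ltf and Elane) although it gives their fold changes, a state shared by 0.6% of the 27486 genes with reads. The reason is not stated in the table. Of the 165 genes without a p, 34 were highest in named WT 2, among them these 7 and a further 7 from the other neutrophil lists, such as Mpo and Lcn2. Named WT 4 was highest for another 34 and named Qk-KO 4 for 31. Outside the neutrophil lists, 4 of 6 oligodendrocyte markers had no p, as had 2 of 7 mast cell, basophil and eosinophil genes with reads. In the other cell type lists every gene with reads had a p.

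For the members that kept a p, the authors' deposited table gives log2 fold changes of -0.60 for Mmp8 (SE 0.43, adjusted p = 0.659), -0.53 for Mmp9 (SE 0.51, adjusted p = 0.770) and -0.39 for Retnlg (SE 0.52, adjusted p = 0.845). The authors' deposited table called 0 of these 3, where it called 1.22% of the 14150 genes with an adjusted p. For the 7 without a p, its fold changes ran from -0.56 for S100a9 to -1.20 for Ly6g. For S100a9 the deposited log2 fold change of -0.56 stands beside -0.03 from the log2 values, 2 estimates reached by different methods.

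Most genes of the other neutrophil granule lists were also highest in named WT 2. All 6 primary granule and myeloblast genes were highest in named WT 2. Mpo read 3.08, 9.30, 2.74 and 1.86 across named WT, and 4.52, 5.31, 3.05 and 2.96 across named Qk-KO. Prtn3, proteinase 3, read 7.24 in named WT 2 and 2.41 to 4.10 elsewhere, and Ctsg, cathepsin G, read 5.29 there and 1.78 to 3.72 elsewhere. Among 12 further secondary and tertiary granule genes, 9 were highest in named WT 2 and 7 lowest in named WT 4. Lcn2, the siderophore-binding lipocalin, read 10.35 in named WT 2 and 6.27 to 8.03 elsewhere, and Cd177, a neutrophil surface and granule protein, 9.31 against 4.51 to 7.11. Lyz2 and Cybb of the same list, genes that microglia and macrophages also express, varied by far less, with Lyz2 between 16.37 and 16.92.

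Many genes of mature neutrophils were highest in named WT 2 and many were lowest in named WT 4, though not always the same genes. Among the 11 tested surface receptors, 8 were highest in named WT 2 and 9 lowest in named WT 4. Cxcr2, the chemokine receptor that draws neutrophils out of the marrow, read 6.17, 7.19, 6.60 and 4.78 across named WT, and 6.00, 6.77, 6.67 and 6.74 across named Qk-KO. Of 11 tested cytosolic and secreted genes, 7 were highest in named WT 2 and 7 lowest in named WT 4; Stfa2 and Stfa3 had no reads. In these 2 lists the median difference by sample name was positive, 0.15 and 0.11, where that of the 10 genes was negative. Limma called 0 genes of any of these lists by either grouping.

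Genes that attract neutrophils did not peak in named WT 2, but the list is too short to read this as a result. Of the 7 tested chemoattractants and growth factors, 0 were highest there, near the 8.8% of all tested genes. The list mean was 5.19 in named WT 2 and 4.57 to 5.37 elsewhere. It was lowest in named Qk-KO 4 (4.57) and named WT 4 (4.62), which were also lowest in the 10 neutrophil genes. Cxcl2, a ligand of Cxcr2, read 11.90, 12.10, 11.69 and 11.07 across named WT, and 12.46, 11.48, 12.08 and 10.84 across named Qk-KO, highest in named Qk-KO 1 and lowest in named Qk-KO 4. Cxcl1 read 8.60 in named Qk-KO 1, 6.30 in named Qk-KO 4 and 6.35 in named WT 4. Ppbp, Cxcl5 and Csf3 were low, at 0.055, 0.049 and 0.030 CPM.

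The 8 calprotectin receptors and their partners had a median range of 0.50 log2 units, near the 0.55 of all tested genes, and 1 of them was highest in named WT 2. Tlr4, a receptor that calprotectin engages, lay between 11.68 and 12.16, while Cd14, its co-receptor, spanned 1.11 log2 units and was highest in named Qk-KO 1. The 9 tested inhibitors and activators of granule proteases had a median range of 2.54, with 2 of them highest in named WT 2. Of the 8, the authors' deposited table called 1, Cd36, a scavenger receptor, at a log2 change of -0.59 (adjusted p = 0.000226), while limma called 0. Among protease inhibitors, Timp2, an inhibitor of matrix metalloproteinases, lay between 14.72 and 15.06, and Serpinb1a, an inhibitor of neutrophil elastase, read 6.64 in named WT 2 and 4.10 to 5.44 elsewhere. All 9 tested genes of that list had negative differences by sample name, with a median of -0.63; the lowest were Serpina3n and A2m at -1.31 and -0.89, neither called (limma adjusted p = 0.672 and 0.733). Astrocyte markers had the same sign for 6 of 6 (median -0.95) and endothelial markers for 6 of 7 (median -0.61), and their part in these differences was not tested.

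Among 2412 other genes with a mean normalized signal of at least 50 and a range of at least 1 log2 unit, the 10 with the highest r to the mean centred profile of the members over the 8 libraries were Ly6c2, Anxa1, Atp8b4, Cd177, Ccdc88c, Lcn2, Mpo, Ear2, Cd24a and Rasgrp2. Their r ran from 0.989 for Ly6c2 to 0.925 for Rasgrp2, and without named WT 2 and named WT 4 from 0.965 for Ly6c2 to 0.709 for Cd24a. Ly6c2, a surface antigen, read 8.22 in named WT 2, 5.88 in named WT 4 and 6.33 to 7.14 in the other 6. Anxa1, annexin A1, read 9.38 in named WT 2 and 5.55 in named WT 4. Of these 10 genes, Anxa1, Cd177, Lcn2 and Mpo stood in the granule lists and Ly6c2 in the monocyte list.

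Markers of other cells moved with the neutrophil genes to different degrees, and their part in the result was not tested. The 10 monocyte markers averaged 9.52 log2 units in named WT 2, against 8.31 to 9.04 in the other libraries, and 8 of the 10 were highest there. The 5 erythroid genes were all highest in named WT 2, with a mean of 11.66 against 9.94 to 11.33, while named WT 4, low in neutrophil genes, was at 11.33. Platelet, T and NK cell and B cell lists averaged 6.28, 4.87 and 7.13 in named WT 2, with the other libraries at 5.85 to 6.47, 4.19 to 4.67 and 6.16 to 6.99.

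Named WT 4 and named Qk-KO 4, the libraries lowest in the neutrophil genes, were the highest in oligodendrocyte and astrocyte markers. The mean of the 6 oligodendrocyte markers was 9.96 and 9.95 there, against 7.66 to 8.25 in the other 6 libraries. The 6 astrocyte markers averaged 11.38 and 11.13 in these libraries, against 8.42 to 10.62. The microglia markers averaged 15.14 to 15.73 over all 8 libraries, with named WT 2 at 15.50. Fn1 and Siglecf, which stand in the monocyte and granulocyte lists, were at 562.7 and 90.7 CPM and make up most of the summed level of those lists. Of the 6 tested mast cell, basophil and eosinophil genes, 5 were highest in named WT 2, with a list mean of 5.73 there and 3.65 to 4.52 elsewhere. Most of this came from the eosinophil genes Epx and Prg2, 19.0- and 17.7-fold over the median of the other 7 libraries. Mcpt8, Cma1 and Cpa3 were at 1.67-, 1.51- and 1.64-fold, on mean normalized signals of only 2.92, 3.50 and 2.33. Of 7 border macrophage markers, 5 were highest in named WT 2 (mean 9.86), with named Qk-KO 4 at 9.85. The 7 endothelial markers averaged 9.90 in named WT 2, which was 0.70 above the median of the other 7 libraries, against 0.64 for the monocyte and the border macrophage lists. Named WT 1 and named Qk-KO 4 were higher still in endothelial markers, at 10.07 and 10.15, and 0 of the 7 were highest in named WT 2.

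**Figure D5:**
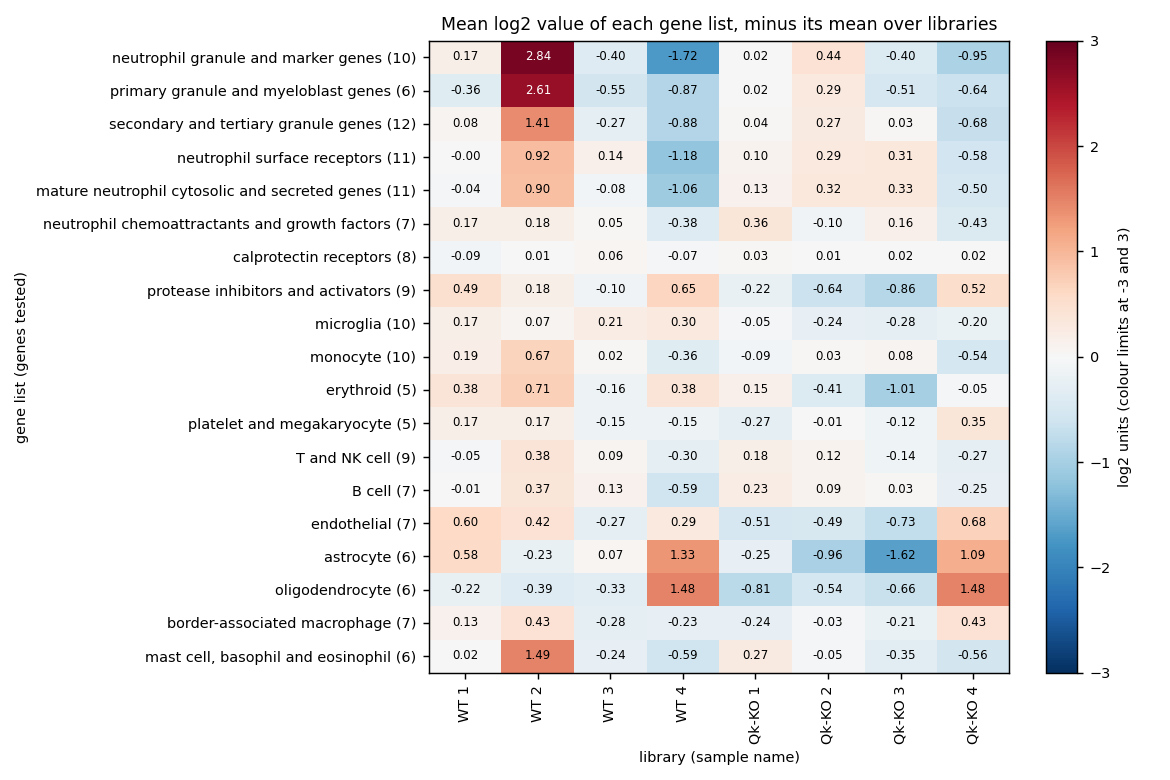
Mean log2 value of each gene list (rows, with the number of genes tested) in each library (columns), minus the list's mean over the 8 libraries, in log2 units. Named WT 2 is 2.84 above the mean for the 10 neutrophil genes and named WT 4 is 1.72 below it, while the oligodendrocyte row is highest in named WT 4 and named Qk-KO 4.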

How the data were processed

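Total RNA of 8 microglia libraries was sequenced. Per the submitters' processing notes, FastQC, HISAT2, StringTie and DESeq2 were used with build mm10; no versions or annotation are stated. Each library column, as deposited, holds log2 values that behave as regularized ones; 19497 genes without reads are listed at 0. The authors' deposited table also gives a mean normalized signal, log2 fold changes with standard errors, a test statistic (a score), p-values and adjusted p-values. Since the table holds no per-library counts, limma 3.58.1 (R 4.3.3) was run on the log2 values, with trend and robust empirical Bayes and no pseudocount, by sample name and by genotype field. Of 27486 genes with reads, 22546 reached a normalized value of 1 in 4 or more libraries and were tested. A call means a Benjamini-Hochberg adjusted p under 0.05. The fit was tested on simulated data.

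CPM is the mean signal divided by 56.8, the signal equal to 1 CPM. Exon lengths and positions come from GENCODE M21 (GRCm38), matched by gene ID without version. What 1 read is worth was taken from genes with reads in 1 library only, whose values were whole within 1%; totals are rough. Alternatives covered the filter, the empirical Bayes settings, library centring, a replicate block and each library left out. The genes, lists and tests were chosen with earlier results of these data known. Text names all 10 genes, up to 2 highest and 2 lowest differences of each list plus called genes, and the 10 most alike; other genes, such as Cxcr2, Cxcl1, Tlr4, Mpo, Cd177, Lyz2, Fn1 and Siglecf, were named after their values were seen.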

Additional observations from a re-analysis of the deposited data

Results flagged for a closer look

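Elane in named WT 2 stood far from the other 3 libraries of its group. It read 6.96 on the deposited log2 scale, where named WT 1, 3 and 4 lay between 2.34 and 2.39, so that the gap made up 0.989 of the group's range, above Dixon's critical value for 4 samples. Of the 20 groups checked, 10 genes in each of 2 named groups, this was the only 1 beyond that value, and chance gives about 5% of groups. Elane had 303.1 normalized reads in all, so its low values rest on few reads and are shrunken. Shrinkage can bring the other 3 values closer together and so raise the share. The cause of the gap was not tested.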

How the results depend on the processing

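No member was called in any of the 150 values from alternative fits (smallest limma adjusted p = 0.566), where 40, from the filters, empirical Bayes settings and replicate block, keep the estimate by construction. Of the 110 that could move, 27 changed sign. With 1 library left out, differences ran from -0.78 to 0.68 for S100a8, -0.86 to 0.87 for S100a9, -0.93 to -0.02 for Ly6g, -0.87 to 0.27 for Retnlg, -0.73 to 0.16 for Mmp8, -0.89 to 0.28 for Mmp9, -1.51 to 0.46 for Camp, -1.57 to 0.62 for Ngp, -1.56 to 0.67 for Ltf and -1.25 to 0.29 for Elane; every highest value came without named WT 2, and the signs also turned without named Qk-KO 3 (S100a9) and named Qk-KO 4 (S100a8, S100a9 and Retnlg). Without named WT 2 and named WT 4 together, chosen after the data were seen, S100a8, S100a9 and Elane stood at 0.21, 0.082 and 0.30. With libraries centred on their median, which differed by -0.08 between the named groups, S100a9 was 0.047. By genotype field the differences were 1.06 (S100a8), 1.23 (S100a9), 0.50 (Ly6g), 0.41 (Retnlg), 0.66 (Mmp8), 0.82 (Mmp9), 1.13 (Camp), 1.54 (Ngp), 1.64 (Ltf) and 0.67 (Elane). Over all genes, limma called 0 (without named Qk-KO 3) to 7 (without named Qk-KO 4) genes by sample name with 1 library left out and 0 to 1 by genotype field; without named WT 2 and named WT 4 together it called 4 and 1. Filters and empirical Bayes settings left both counts at 1 and 0. Few reads limit Ly6g and Elane, whose values are the most shrunken.

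Whether replicate numbers pair the libraries is not stated. Deviations from the group means of same-numbered libraries correlated across genes at 0.045, 0.15, 0.25 and 0.46 for numbers 1 to 4. The pair numbered 1 was under 0.1, so the numbers were not taken as a pairing. As a hint from the data, named Qk-KO 2, 3 and 4 each correlated best with their own number, and named Qk-KO 1 with named WT 3 (0.11), while named WT 2 correlated equally with named Qk-KO 2 and 3 (0.15). With the replicate block, limma called 1 gene, as without it, with 2924 genes at an unadjusted p under 0.05 against 1863; 0 members were called (smallest adjusted p = 0.566).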

Other observations

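Several granule genes of eosinophils, another granulocyte, were also highest in named WT 2, while the eosinophil surface marker Siglecf was highest in named WT 4 (12.61, against 12.48 in named WT 2); beyond Epx and Prg2, which stand in the eosinophil list, they were picked after their values were seen. Values are on the deposited log2 scale, in replicate order. Epx, eosinophil peroxidase, read 4.02, 7.71, 3.14 and 3.02 across named WT, and 4.47, 4.54, 2.39 and 3.46 across named Qk-KO. Prg2, the major basic protein of eosinophil granules, read 8.97 in named WT 2 and 3.09 to 6.18 elsewhere. The eosinophil-associated ribonucleases Ear1, Ear2 and Ear6 read 5.82, 7.99 and 5.61 in named WT 2. Elsewhere they read 2.81 to 3.53, 5.77 to 6.93 and 1.81 to 3.27. Ear2 stood out least, at 2.87-fold over the median of the other 7 libraries. Fcnb, a ficolin of neutrophil precursors, read 6.15 in named WT 2, with named WT 1 at 2.45 and named Qk-KO 1 at 3.09. The authors' deposited table gives no p for Epx, Prg2, Ear1, Ear6 and Fcnb. Ear1, Ear6 and Fcnb were named from the genes without a p that were highest in named WT 2. For them, both traits follow from that choice. Ear2 came from the genes most alike in profile.

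Transcripts of 3 pituitary hormone genes were highest in the same library. They too were picked after their values were seen, from the genes without a p that were highest in named WT 2. Gh, growth hormone, read 7.16 in named WT 2, where named WT 1 read 2.56, WT 3 1.82, WT 4 1.26 and named Qk-KO 1 to 4 1.40, 2.22, 1.48 and 1.44. Prl, prolactin, read 1.09 in named WT 2 and 0.15 to 0.16 elsewhere. Cga, the shared subunit of glycoprotein hormones, read 1.597 there and 0.36 to 0.62 elsewhere.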
